A study of Homo sapiens with 12 samples.

Results

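The 104 genes described here were read in A375 melanoma cells and had no reads, or nearly none, in the BRAF-inhibitor-resistant cells A375-BIR. They are the protein-coding genes with at most 6 raw counts summed over the 6 A375-BIR libraries and a mean of at least 10 CPM (counts scaled to 1000000 gene counts) over the 4 A375 libraries with human identifiers. Symbols of the collagen, laminin, integrin, cadherin, metalloproteinase, ADAM, semaphorin, ephrin receptor, MAGE and HLA families were left out by their first letters. Of 8955 protein-coding genes with at least 10 CPM in A375, 109 passed both limits, and 5 of these (ITGA9, COL1A2, COL25A1, MMP17 and COL11A2) were left out by symbol. The counts of both lines chose the genes, so their low level in A375-BIR is described without a test.

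A375 is an established human melanoma line that carries activated BRAF, the kinase that dabrafenib blocks. Both lines were grown in RPMI with serum and received dabrafenib (200 nM) or the solvent DMSO (0.1%) for 48 h, and 3′ end tags of their RNA were sequenced. The 4 groups were A375-BIR with DMSO (3 libraries), A375-BIR with dabrafenib (3 libraries), A375 with dabrafenib (3 libraries) and A375 with DMSO, of which only replicate 1 was used, because the other 2 files list mouse genes. The labels name the replicates biological and do not say how A375-BIR was derived, whether it is 1 clone, or whether it was kept in drug before the experiment. Gene counts were 1999840 in the A375 DMSO library, 198690 to 493398 in A375 with dabrafenib, 579288 to 1100917 in A375-BIR with DMSO and 391210 to 971347 in A375-BIR with dabrafenib. The A375 DMSO library carries another run stamp than the other 9 libraries used, so run and treatment cannot be told apart in A375. Mitochondrially encoded genes took 10.7% to 15.1% of gene counts in A375 and 4.63% to 7.21% in A375-BIR, and the part of this difference in the results was not tested.

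Melanoma cells descend from the neural crest, which also gives rise to Schwann cells, and they keep genes of both the pigment cell and the glial program under factors such as SOX10, MITF and TFAP2. A gene can fall silent when its activating factors are lost. It can also be closed by chromatin, where Polycomb complexes mark histone H3 at lysine 27, lysine 9 methyltransferases and deacetylases compact the region, or DNA methyltransferases mark CpG dinucleotides of its promoter. Tag counts measure polyadenylated RNA only, and no chromatin was measured here.

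The promoters of 4 of the genes show how different the starts of these genes are. ACAN and CAPN3 had the highest mean CPM of the 104 genes in A375, and TYR and TRIM63 hold a match to the motif of the pigment cell factor MITF. Each sequence runs 5′ to 3′ on the strand of its gene over 300 bases, from 250 before to 50 after the RefSeq start (GRCh38.p14), which need not be the start used in these cells. Capitals mark CpG in ACAN and CAPN3 and the MITF motif TCANGTG, searched on both strands, in TYR and TRIM63. The intervals are chr15:88803186-88803485 (plus strand), chr15:42359251-42359550 (plus), chr11:89177625-89177924 (plus) and chr1:26067581-26067880 (minus).
ACAN: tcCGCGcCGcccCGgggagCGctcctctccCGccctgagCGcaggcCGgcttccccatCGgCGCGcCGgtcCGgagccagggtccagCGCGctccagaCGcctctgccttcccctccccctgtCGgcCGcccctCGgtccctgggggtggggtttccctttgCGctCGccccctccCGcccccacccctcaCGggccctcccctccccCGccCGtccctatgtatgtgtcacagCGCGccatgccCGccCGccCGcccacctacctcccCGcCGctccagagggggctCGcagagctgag
CAPN3: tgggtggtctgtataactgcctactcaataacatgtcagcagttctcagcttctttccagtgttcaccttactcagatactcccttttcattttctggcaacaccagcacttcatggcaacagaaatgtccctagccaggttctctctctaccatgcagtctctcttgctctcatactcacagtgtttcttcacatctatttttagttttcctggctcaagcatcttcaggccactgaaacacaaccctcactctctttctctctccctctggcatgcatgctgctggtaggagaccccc
TYR: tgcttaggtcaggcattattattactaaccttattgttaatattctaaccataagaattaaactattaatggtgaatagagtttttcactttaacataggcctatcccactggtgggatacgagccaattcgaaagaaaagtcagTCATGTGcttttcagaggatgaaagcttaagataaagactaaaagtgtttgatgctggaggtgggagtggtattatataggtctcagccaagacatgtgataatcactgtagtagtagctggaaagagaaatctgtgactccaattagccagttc
TRIM63: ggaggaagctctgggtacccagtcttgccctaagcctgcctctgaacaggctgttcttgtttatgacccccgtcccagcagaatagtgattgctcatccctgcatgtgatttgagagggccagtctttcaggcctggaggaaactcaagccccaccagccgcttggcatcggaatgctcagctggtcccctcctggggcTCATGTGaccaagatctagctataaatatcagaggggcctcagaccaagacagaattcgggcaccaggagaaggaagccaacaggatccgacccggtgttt

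The ACAN promoter holds 33 CpG, an observed to expected CpG ratio of 0.810, and the CAPN3 promoter holds 0. The TYR promoter holds 2 CpG and the TRIM63 promoter 6. The motif lies 105 bases before the start in TYR and 51 bases before it in TRIM63. Of 35116 promoters of this length in the RefSeq table, 12.5% hold TCANGTG, and their median CpG ratio was 0.579. Of 7369 promoters of other protein-coding genes at 10 CPM or more in A375, 885 hold the motif, and their median CpG ratio was 0.861, above that of ACAN. A match is a description of letters and shows no binding. Only 70 of the 104 genes were found in the table, so the comparison of CpG content and motifs over the set was void and is not given.

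In A375-BIR the 104 genes gave 244 counts in all, 107 with DMSO and 137 with dabrafenib. No counts at all came from 21 genes, 72 genes had at most 3, and 5 genes had the 6 that the limit allowed. A gene at 10 CPM would have given 45.5 counts over these libraries. A count of 0 allows up to 0.660 CPM (3 counts over the 6 libraries), and 6 counts equal 1.32 CPM. These limits, and all intervals below, cover counting error only. In bulk RNA, fewer cells with a transcript and less of it per cell cannot be told apart.

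The summed level of the 104 genes was 3959 CPM in A375 with DMSO and 3486, 3233 and 2783 CPM in A375 with dabrafenib. In A375-BIR it was 38.1, 41.4 and 44.9 CPM with DMSO and 65.9, 60.6 and 99.7 CPM with dabrafenib. All 3 A375-BIR libraries with dabrafenib lay above all 3 with DMSO, and both groups lay far below every A375 library. The rule capped the raw counts of these same A375-BIR libraries, so the sums test neither a drug nor a line difference. The A375-BIR sums rest on 26 to 64 counts per library. The highest of them, 99.7 CPM, came from the A375-BIR library with the fewest gene counts (391210). At least 1 count was seen for 101 or 102 of the genes in each A375 library and for 20 to 41 in each A375-BIR library.

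**Figure D1:**
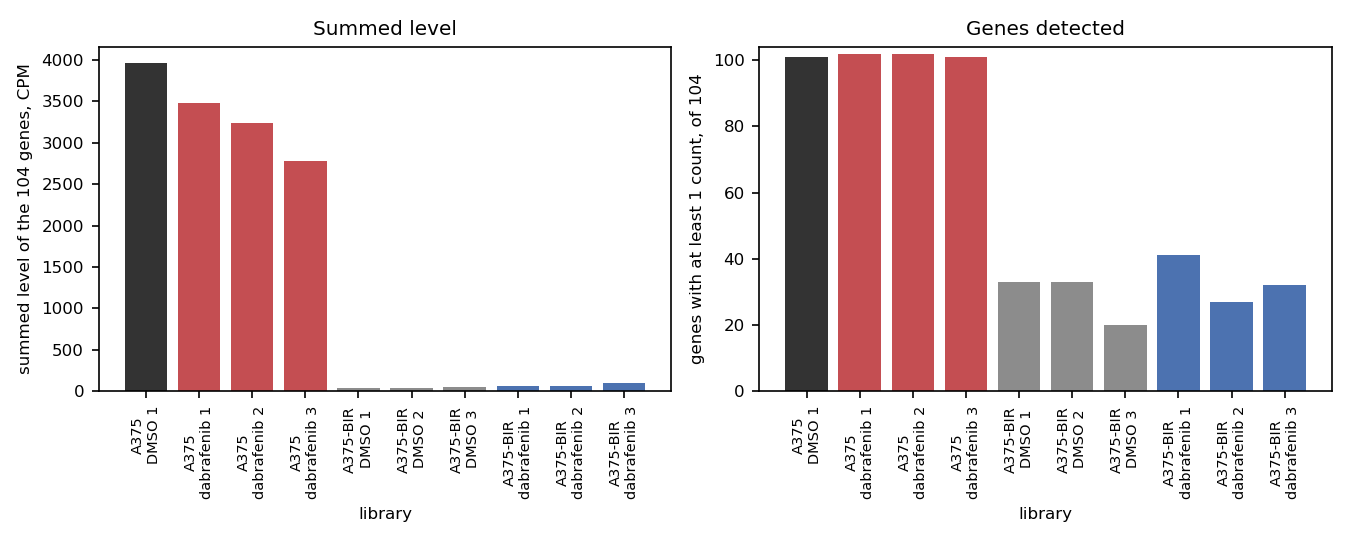
Summed level in CPM (left) and number with at least 1 count (right) of the 104 genes, 1 bar per library. The 4 A375 libraries lie between 2783 and 3959 CPM, and the 6 A375-BIR libraries between 38.1 and 99.7 CPM.

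Within A375 the genes ranged from 10.0 to 229.8 CPM in their mean, with a median of 20.4 CPM, and 20 genes were at 50 CPM or more while 51 were below 20 CPM. In each of the 4 A375 libraries 56 genes reached 10 CPM, 32 did so in 3, and 16 in 2 or fewer. The 3 genes just above the level limit were SCRG1 (10.1 CPM), PMEL (10.1 CPM) and TINCR (10.0 CPM). Just below it were ADPRH (9.95 CPM, 6 counts in A375-BIR), ZNF853 (9.88 CPM, 4 counts) and ANKRD6 (9.85 CPM, 2 counts). At the count limit ITIH5, GALNT5 and PRRG4 had 6 counts, and BEST1 (139 CPM in A375), EPB41L3 (71.0 CPM) and CECR2 (43.0 CPM) had 7. In all, 13 genes at 10 CPM or more, these 3 among them, had 7 counts, and 74 had 7 to 12, so the limits cut through a continuous range.

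**Figure D2:**
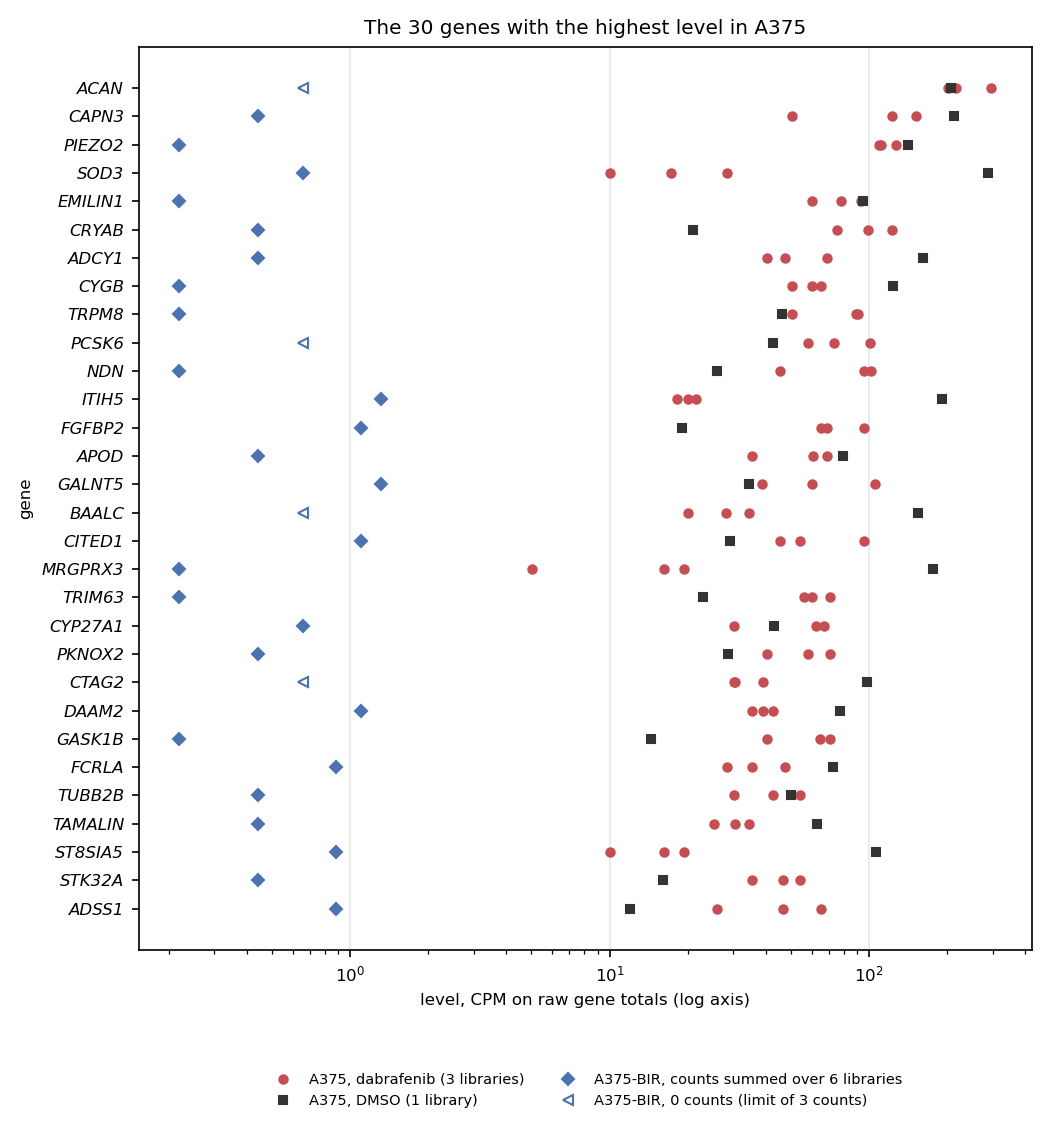
Level of the 30 genes with the highest mean CPM in A375, on a log axis: the DMSO library (square), the 3 dabrafenib libraries (circles) and the counts summed over 6 A375-BIR libraries (diamonds, or open triangles at the limit of 3 counts for genes with 0). The A375-BIR values of the 30 genes lie at or below 1.32 CPM.

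The rule did not fix how the genes stood in A375 with and without dabrafenib, although its mean weighs the dabrafenib libraries 3 to 1. The response of A375 was tested with edgeR's quasi-likelihood test over 10236 genes, with Benjamini-Hochberg adjustment, and a gene was called at an adjusted p under 0.05. Among the 104 genes, 91 passed the filter on low counts. Of these 18 were higher with dabrafenib, where 17.9% of all genes tested were called higher, and 25 were lower, where 20.7% of all genes were called lower. These are 19.8% and 27.5% of the genes tested. The other protein-coding genes at 10 CPM or more in A375 were called higher in 19.4% and lower in 21.8%. The share called higher was near the background, the share called lower was above it, and the median log2 change of the 91 genes (-0.03) was close to that of all genes (0). Genes near the filter pass it through the group where they are high, so these shares are given as a description. The same holds for a single gene that was near 0 in 1 treatment, and its values are then given without a p-value.

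**Figure D3:**
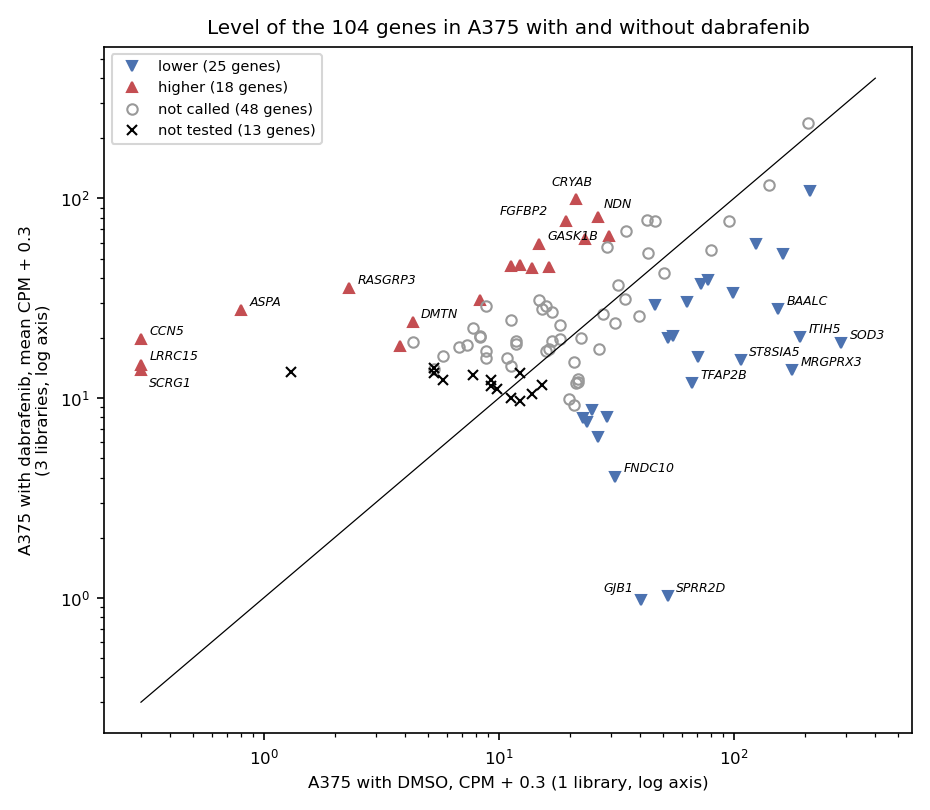
Level of the 104 genes in A375 with DMSO (x axis, 1 library) and with dabrafenib (y axis, mean of 3 libraries), in CPM plus 0.3 on log axes, with a line of equal level. Of the genes, 18 were called higher, 25 lower, 48 were not called and 13 were not tested.

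The A375 DMSO group has 1 library, and the fit gives it the spread pooled over the other groups. Leaving out single dabrafenib libraries left 7 of the 18 higher calls and 21 of the 25 lower calls in every such fit. Beside each named gene the fits that ended its call are given, among them DESeq2 and a fit with the replicate number as a block.

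The genes were grouped by textbook role after their values had been seen, so counts of calls within a group are descriptions, to be read beside the 17.9% of all genes tested that were called higher and the 20.7% called lower. Positions are on GRCh38 (GENCODE 29), and values in parentheses after a change in A375 are the edgeR log2 change with dabrafenib ± its approximate standard error and the adjusted p. In the pigment cell group (5 genes), CAPN3, which encodes a calpain protease also known from muscle (chromosome 15, 42359500 to 42412318), was read at 212 CPM with DMSO and 152, 123 and 50.3 CPM with dabrafenib. The A375-BIR libraries held 0, 0 and 0 counts with DMSO and 1, 0 and 1 with dabrafenib. CAPN3 was present in every A375 library, highest without drug, and was seen as a single read in 2 A375-BIR libraries. CAPN3 fell in A375 with dabrafenib (-1.11 ± 0.26, adjusted p = 0.0011), a call that ended with a replicate block (adjusted p = 0.0567).

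CITED1, a transcriptional coregulator of pigment cells (chromosome X, 72301638 to 72307187), was read at 29 CPM with DMSO and 95.3, 54 and 45.3 CPM with dabrafenib. A375-BIR had 3, 0 and 1 counts with DMSO and 1, 0 and 0 with dabrafenib. All 3 dabrafenib libraries of A375 lay above the DMSO library, and the gene rose (0.97 ± 0.35, adjusted p = 0.0271), a call that ended with DESeq2 and without dabrafenib replicate 1. CITED1 overlaps PIN4 on the other strand, a gene read in both lines, and the strand setting of the counting is not given in the sources used here.

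IRF4, the factor that acts with MITF on tyrosinase (chromosome 6, 391739 to 411447), was read at 13.5 CPM with DMSO and 50.7, 32.4 and 50.3 CPM with dabrafenib and rose (1.41 ± 0.47, adjusted p = 0.0161), a call that ended with DESeq2 and without dabrafenib replicate 1. A375-BIR had 1 count of IRF4 in its 6 libraries. TYR, the tyrosinase gene itself (chromosome 11, 89177452 to 89295759), was read at 27.5 CPM with DMSO and 40.5, 28.1 and 10.1 CPM with dabrafenib, without a call. TYR had 0 counts in A375-BIR, at least 19.4-fold lower than in A375 with dabrafenib. PMEL, the melanosome fibril gene, had 12 CPM with DMSO and 9.42 ± 5.16 CPM (SD, n = 3) with dabrafenib, near the level limit, was not tested, and had 3 counts in A375-BIR.

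Extracellular matrix and secreted proteins made up 14 genes. ACAN, the large proteoglycan of cartilage (chromosome 15, 88803442 to 88875354), was read at 206 CPM with DMSO and 296, 216 and 201 CPM with dabrafenib. All 6 A375-BIR libraries had 0 counts of it. ACAN was at or above 201 CPM in every A375 library and differed between A375 treatments by less than the spread (-0.03 ± 0.23, adjusted p = 0.981). In A375-BIR with dabrafenib it was at least 159-fold lower, the highest lower limit among the 41 genes for which one could be set. Those limits, against 3 counts over the group, ran from 2.22-fold upward with a median of 13.3-fold, and 27 were at 10-fold or more.

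EMILIN1, an elastic fibre glycoprotein (chromosome 2, 27078567 to 27086408), was read at 95 CPM with DMSO and 93.2, 77.7 and 60.4 CPM with dabrafenib, with 1 count in A375-BIR. PCSK6, a proprotein convertase that activates secreted factors (chromosome 15, 101297142 to 101525202), was read at 42.5 CPM with DMSO and 73, 58.3 and 101 CPM with dabrafenib, with 0 counts in A375-BIR. Neither was called in the response of A375. FGFBP2, a secreted binding protein gene (chromosome 4, 15960243 to 15969309), was read at 19 CPM with DMSO and 95.3, 69.1 and 65.4 CPM with dabrafenib and rose (1.78 ± 0.35, adjusted p = 0.000135), with 5 counts in A375-BIR, 4 of them with dabrafenib.

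SOD3, the secreted superoxide dismutase (chromosome 4, 24789912 to 24800842), showed the opposite course in A375. It was read at 286 CPM with DMSO and 28.4, 17.3 and 10.1 CPM with dabrafenib, and the DMSO library lay far above each dabrafenib library. SOD3 fell by 4.06 on the log2 scale (SE 0.31, edgeR adjusted p = 1.76e-12), and A375-BIR had 3 counts. ITIH5, a hyaluronan-binding inhibitor heavy chain (chromosome 10, 7559270 to 7666998), was read at 192 CPM with DMSO and 18.2, 21.6 and 20.1 CPM with dabrafenib and fell as well (-3.52 ± 0.30, adjusted p = 2.27e-11). ITIH5 was at the count limit in A375-BIR with 6 counts.

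CCN5, a matricellular protein gene, and LRRC15, a leucine-rich repeat membrane protein of mesenchymal cells, were seen in A375 only with dabrafenib. CCN5 had 0 counts in the DMSO library, the deepest of all, and 30.4, 12.9 and 15.1 CPM with dabrafenib. LRRC15 had 0 counts with DMSO and 20.3, 12.9 and 10.1 CPM with dabrafenib. Against 3 counts in the DMSO library they were at least 13.8-fold and at least 10.4-fold higher with dabrafenib. Both met the level limit and the filter through the dabrafenib libraries alone. Without dabrafenib replicate 1 neither gene passed the filter, and LRRC15 did not pass it without replicate 2 either. In A375-BIR the 2 genes had 3 and 2 counts.

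Genes best known from glia and neurons formed the largest group (20 genes). APOD, apolipoprotein D, a lipid carrier abundant in glia (chromosome 3, 195568702 to 195584205), was read at 79.5 CPM with DMSO and 60.8, 69.1 and 35.2 CPM with dabrafenib, with 2 counts in A375-BIR and no call in A375 (-0.70 ± 0.29, adjusted p = 0.0505). BAALC, a membrane-associated protein gene of neural tissue (chromosome 8, 103140710 to 103230305), was read at 155 CPM with DMSO and 34.5, 28.1 and 20.1 CPM with dabrafenib and had 0 counts in all 6 A375-BIR libraries. Its DMSO value lay above every dabrafenib value, and it fell (-2.67 ± 0.29, adjusted p = 1.47e-08). PMP2, a fatty-acid-binding protein of peripheral myelin, was read at 14.5 CPM with DMSO and 46.6, 30.2 and 15.1 CPM with dabrafenib with 0 counts in A375-BIR, and was not called.

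TUBB2B, a beta-tubulin of neurons (chromosome 6, 3224261 to 3231730), was read at 50.004 CPM with DMSO and 42.6, 54 and 30.2 CPM with dabrafenib with 2 counts in A375-BIR. TUBB2B is nearly identical to TUBB2A, and its reads can be split between the copies by the authors' counting. TAMALIN, a scaffold gene of glutamate receptors, was read at 63 CPM with DMSO and 30.4, 34.5 and 25.2 CPM with dabrafenib and fell (-1.29 ± 0.33, adjusted p = 0.00256), which DESeq2 did not call. NPTX1, a pentraxin of synapses, was read at 55 CPM with DMSO and 28.4, 17.3 and 15.1 CPM with dabrafenib and fell (-1.62 ± 0.38, adjusted p = 0.000835), which DESeq2 did not call either. A375-BIR had 2 counts of TAMALIN and 1 of NPTX1.

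ASPA, the aspartoacylase of oligodendrocytes, had 1 count in the A375 DMSO library (0.50 CPM) and 34.5, 17.3 and 30.2 CPM with dabrafenib. The ratio of dabrafenib to DMSO was 53.7 (95% counting interval 8.94 to 2187). SCRG1, a secreted protein gene of glia and cartilage, had 0 counts with DMSO and 20.3, 15.1 and 5.03 CPM with dabrafenib, at least 10.4-fold higher, and it did not pass the filter without dabrafenib replicate 1 or 2. Both genes met the level limit through the dabrafenib libraries alone. In A375-BIR ASPA had 0 counts and SCRG1 had 1.

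GJB1, the gap junction connexin of Schwann cells, went the other way. It gave 40.0 CPM with DMSO and 2.03, 0 and 0 CPM with dabrafenib, a ratio of 46.2 (95% counting interval 8.06 to 1848). GJB1 met the level limit through the DMSO library alone, and A375-BIR had 1 count. SHISA9, a regulator of AMPA receptors, was read at 3.50 CPM with DMSO and 22.3, 21.6 and 10.1 CPM with dabrafenib. It met the level limit through the dabrafenib libraries alone, and its log2 change was 2.17 ± 0.78. The higher call of SHISA9 ended with DESeq2, with the replicate block and without dabrafenib replicate 1 or 2. The group as a whole had 3 higher, 5 lower and 11 uncalled genes of 19 tested, and 4 of its 20 genes had 0 counts in A375-BIR.

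Transcription regulators made up 11 genes, of which 1 was higher, 2 were lower and 8 were not called in A375. NDN, necdin, a growth suppressor from an imprinted locus (chromosome 15, 23685400 to 23687330), was read at 26 CPM with DMSO and 95.3, 101 and 45.3 CPM with dabrafenib. NDN rose (1.47 ± 0.34, adjusted p = 0.000792), with every dabrafenib library above the DMSO library, and had 1 count in A375-BIR. PKNOX2, a TALE homeobox gene (chromosome 11, 125164687 to 125433389), was read at 28.5 CPM with DMSO and 70.9, 58.3 and 40.3 CPM with dabrafenib, without a call, with 2 counts in A375-BIR.

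TFAP2B, a neural crest AP-2 factor (chromosome 6, 50818723 to 50847613), was read at 66 CPM with DMSO and 16.2, 8.63 and 10.1 CPM with dabrafenib and fell (-2.70 ± 0.40, adjusted p = 3.2e-06). RXRG, a retinoid X receptor (chromosome 1, 165400917 to 165445355), was read at 26 CPM with DMSO and 6.08, 2.16 and 10.1 CPM with dabrafenib. These dabrafenib values of RXRG rest on 3, 1 and 2 counts. Its log2 change was -2.55 ± 0.67, a lower call that DESeq2 did not make. TFAP2B and RXRG had 0 counts in A375-BIR, and both were above their dabrafenib values in the DMSO library. HEY2, a Notch-responsive repressor, was read at 26.5 CPM with DMSO and 16.2, 10.8 and 25.2 CPM with dabrafenib with 5 counts in A375-BIR, and ZFP57, a guardian of imprinting, at 18 CPM with DMSO and 12.2, 25.9 and 20.1 CPM with dabrafenib with 1 count. HEY2 and ZFP57 were not called.

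Channels, transporters and surface receptors made up 7 genes, with 0 higher, 3 lower and 3 uncalled of 6 tested. PIEZO2, a mechanically gated cation channel (chromosome 18, 10666483 to 11148762), was read at 141 CPM with DMSO and 109, 127 and 111 CPM with dabrafenib. Its A375 values lay close together, and A375-BIR had 1 count in 6 libraries. TRPM8, the cold and menthol channel (chromosome 2, 233917398 to 234019522), was read at 46 CPM with DMSO and 89.2, 90.6 and 50.3 CPM with dabrafenib with 1 count in A375-BIR. PIEZO2 and TRPM8 were not called in A375.

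MRGPRX3, a receptor of the Mas-related family (chromosome 11, 18120955 to 18138480), was read at 177 CPM with DMSO and 16.2, 19.4 and 5.03 CPM with dabrafenib and fell (-3.77 ± 0.33, adjusted p = 6.82e-11). The DMSO library stood far above the 3 dabrafenib libraries, and A375-BIR had 1 count. ANO4, a member of the anoctamin family, was read at 24.5 CPM with DMSO and 12.2, 12.9 and 0 CPM with dabrafenib. Its dabrafenib mean of 8.37 CPM lay under the level limit, and its log2 change was -1.52 ± 0.58. The lower call of ANO4 ended with DESeq2, with the replicate block and without any 1 of the dabrafenib libraries. SLC22A17, a receptor for lipocalin 2, was read at 23.5 CPM with DMSO and 8.11, 8.63 and 5.03 CPM with dabrafenib. It met the level limit through the DMSO library alone, and its log2 change was -1.85 ± 0.60. The lower call of SLC22A17 ended with DESeq2, with the replicate block and without dabrafenib replicate 1. ANO4 had 1 and SLC22A17 had 4 counts in A375-BIR.

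Glycan enzymes made up 5 genes, named here after their values had been seen where they were outside the 30 highest. ST8SIA1 makes the ganglioside GD3, a melanoma antigen, and ST8SIA5 builds longer sialic acid chains on gangliosides. ST8SIA1 was read at 8.0 CPM with DMSO and 32.4, 49.6 and 10.1 CPM with dabrafenib. It met the level limit through the dabrafenib libraries alone, and its log2 change was 1.82 ± 0.56. The higher call of ST8SIA1 ended with DESeq2 and without dabrafenib replicate 2. ST8SIA5 was read at 107 CPM with DMSO and 16.2, 19.4 and 10.1 CPM with dabrafenib and fell (-2.96 ± 0.34, adjusted p = 1.8e-08). The 2 sialyltransferases thus moved in opposite directions in A375, while A375-BIR had 5 and 4 counts of them. GALNT5, which starts O-glycans (chromosome 2, 157257598 to 157314211), was read at 34.5 CPM with DMSO and 38.5, 60.4 and 106 CPM with dabrafenib, without a call, with 1, 0 and 0 counts with DMSO and 3, 1 and 1 with dabrafenib in A375-BIR. ST8SIA1 overlaps CMAS on the other strand, which A375-BIR also expressed.

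Among 12 metabolic and redox enzymes, 2 were higher, 3 lower and 6 not called of 11 tested, and 5 had 0 counts in A375-BIR. CYGB, cytoglobin, a globin of fibroblasts and pigment cells (chromosome 17, 76527356 to 76551175), was read at 124 CPM with DMSO and 50.7, 60.4 and 65.4 CPM with dabrafenib and fell (-1.37 ± 0.27, adjusted p = 0.000141), with 1 count in A375-BIR. CYP27A1, the sterol 27-hydroxylase (chromosome 2, 218781749 to 218815293), was read at 43 CPM with DMSO and 66.9, 62.6 and 30.2 CPM with dabrafenib with 3 counts in A375-BIR and no call. PPP1R3C, a glycogen-targeting phosphatase subunit, was read at 11 CPM with DMSO and 38.5, 47.5 and 50.3 CPM with dabrafenib and rose (1.74 ± 0.48, adjusted p = 0.00439), a call that the replicate block ended, with 0 counts in A375-BIR.

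ADSS1, an adenylosuccinate synthase of muscle, was read at 12 CPM with DMSO and 46.6, 25.9 and 65.4 CPM with dabrafenib and rose (1.55 ± 0.49, adjusted p = 0.0114). The call of ADSS1 ended with DESeq2 and without dabrafenib replicate 1 or 3. ACSS3, a mitochondrial short-chain acyl-CoA synthetase, was read at 32 CPM with DMSO and 48.6, 41 and 20.1 CPM with dabrafenib, was uncalled and had 0 counts in A375-BIR. GLUL, glutamine synthetase, named after its values had been seen, was read at 15.5 CPM with DMSO and 36.5, 19.4 and 30.2 CPM with dabrafenib with 3 counts in A375-BIR and was not called.

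Signalling and cytoskeletal genes numbered 12, and of 11 tested 5 were higher, 3 lower and 3 not called in A375, where 17.9% of all genes tested were called higher and 20.7% lower. CRYAB, the small heat shock protein alpha-B crystallin (chromosome 11, 111908565 to 111923722), was read at 21 CPM with DMSO and 99.3, 123 and 75.5 CPM with dabrafenib. Every dabrafenib library lay above the DMSO library, and CRYAB rose (2.02 ± 0.34, adjusted p = 1.49e-05). A375-BIR had 2 counts, 1 each in dabrafenib replicates 2 and 3.

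RASGRP3, an exchange factor that loads RAS with GTP, was read at 2.0 CPM with DMSO and 48.6, 32.4 and 25.2 CPM with dabrafenib. It met the level limit through the dabrafenib libraries alone, and its log2 change was 3.87 ± 0.74. A375-BIR had 5 counts of RASGRP3. DMTN, dematin, an actin-bundling protein, was read at 4.0 CPM with DMSO and 18.2, 28.1 and 25.2 CPM with dabrafenib, with 0 counts in A375-BIR. It too met the level limit through the dabrafenib libraries alone, and its log2 change was 2.25 ± 0.73. The call of DMTN ended with DESeq2, with the replicate block and without dabrafenib replicate 2. TRIM63, the ubiquitin ligase MuRF1 (chromosome 1, 26051304 to 26068436), was read at 23 CPM with DMSO and 70.9, 56.1 and 60.4 CPM with dabrafenib and rose (1.18 ± 0.36, adjusted p = 0.00936), a call that ended with DESeq2 and without dabrafenib replicate 1. STK32A, a kinase gene, was read at 16 CPM with DMSO and 46.6, 54 and 35.2 CPM with dabrafenib and rose (1.28 ± 0.43, adjusted p = 0.0162), a call lost with DESeq2, with the replicate block and without dabrafenib replicate 1 or 2.

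ADCY1, an adenylyl cyclase (chromosome 7, 45574140 to 45723116), was read at 161 CPM with DMSO and 68.9, 47.5 and 40.3 CPM with dabrafenib and fell (-1.82 ± 0.28, adjusted p = 2.59e-06), with 2 counts in A375-BIR. DAAM2, a formin of the WNT pathway, was read at 77.5 CPM with DMSO and 42.6, 38.8 and 35.2 CPM with dabrafenib and fell (-1.23 ± 0.30, adjusted p = 0.00138), which DESeq2 did not call. MAP7D2, a microtubule-associated protein gene, was read at 52 CPM with DMSO and 22.3, 21.6 and 15.1 CPM with dabrafenib and fell (-1.59 ± 0.40, adjusted p = 0.00187), which DESeq2 did not call either. For all 3 genes the DMSO library lay above each dabrafenib library. DAAM2 and MAP7D2 had 5 counts each in A375-BIR.

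The 18 genes left over had other roles or none that could be assigned with certainty. CTAG2, a cancer-testis antigen of the X chromosome, was read at 98.5 CPM with DMSO and 30.4, 38.8 and 30.2 CPM with dabrafenib, fell (-1.81 ± 0.30, adjusted p = 1.79e-05) and had 0 counts in A375-BIR. CTAG2 has near-identical copies, so its reads may be shared with them. GASK1B was read at 14.5 CPM with DMSO and 70.9, 64.7 and 40.3 CPM with dabrafenib and rose (1.82 ± 0.40, adjusted p = 0.000426), with 1 count in A375-BIR. FCRLA, an Fc-receptor-like gene, was read at 72.5 CPM with DMSO and 28.4, 47.5 and 35.2 CPM with dabrafenib and fell (-1.23 ± 0.31, adjusted p = 0.00216), which DESeq2 did not call.

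SPRR2D, a small proline-rich protein of the skin envelope with close paralogs, gave 52.0 CPM with DMSO and 0, 2.16 and 0 CPM with dabrafenib. The ratio of DMSO to dabrafenib was 60.1 (95% counting interval 10.6 to 2396), and the gene met the level limit through the DMSO library alone. FNDC10, a gene with a fibronectin type III domain, had 31 CPM with DMSO and 4.05, 2.16 and 5.03 CPM with dabrafenib. These dabrafenib values rest on 2, 1 and 1 counts, and FNDC10 too met the level limit through the DMSO library alone. Its log2 change was -3.37 ± 0.67. SPRR2D and FNDC10 had 1 and 2 counts in A375-BIR.

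Of the 104 genes, 50 overlap another listed gene, 45 of them on the other strand. For 9 genes (CITED1, TUBB2B, ST8SIA1, AATK, FAXDC2, PLA2G6, PCDHGA12, C8orf48 and PMEL) the partner had 10 CPM or more in A375, so reads of the 2 genes may not be told apart. PCDHGA12 shares its last exons with other genes of the protocadherin gamma cluster.

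The machinery of gene silencing was examined next, in 3 lists of genes that are not among the 104, between A375-BIR and A375 with dabrafenib, the contrast with 3 libraries on each side and 1 run stamp. Over all 10236 genes tested, 22.6% were called higher and 20.2% lower in A375-BIR with edgeR, and among the other protein-coding genes at 10 CPM or more in A375 these shares were 18.5% and 21.6%. Of 16 DNA methylation genes tested of 18 listed, 3 were higher, 5 lower and 8 not called, with a median log2 difference of -0.30. Of 25 Polycomb genes of 29, 3 were higher, 4 lower and 18 not called (median -0.01). Of 30 genes of lysine 9 methylation and deacetylation, 4 were higher, 6 lower and 20 not called (median 0.03). The median of the other expressed genes was -0.06. Each list held higher, lower and uncalled genes. The lists were not split by role and also hold erasers of a mark, such as KDM6B. The counts and medians therefore give no direction of silencing. They hold for dabrafenib only, and the same difference with DMSO, where A375 has 1 library, was not tested.

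In the DNA methylation list, HELLS, a helicase needed for methylation of repeats, stood at 55.1 ± 7.42 CPM in A375 and 323 ± 91.3 CPM in A375-BIR and was higher (2.45 ± 0.24, adjusted p = 1.01e-10). MBD2, which binds methylated DNA, was higher as well, with 40.035 ± 8.53 CPM in A375 and 138 ± 11.8 CPM in A375-BIR (1.62 ± 0.23, adjusted p = 4.47e-07). DNMT3A, a de novo methyltransferase, stood at 101 ± 43.2 CPM in A375 and 31.2 ± 0.765 CPM in A375-BIR and was lower (-1.69 ± 0.30, adjusted p = 1.59e-05). ZBTB38, a reader of methylated DNA, was also lower (-0.99 ± 0.20, adjusted p = 0.000103). The maintenance enzyme DNMT1 was called higher (0.62 ± 0.23, adjusted p = 0.0309), a call that ended with DESeq2, with only genes of a mean count of 50 or more tested, and without A375 dabrafenib replicate 1 or 2 or A375-BIR dabrafenib replicate 3. DNMT3B was not called (-0.13 ± 0.58, adjusted p = 0.876). With DMSO, DNMT1 stood at 248 CPM in A375 (1 library) and 227 ± 61.7 CPM in A375-BIR. HELLS and MBD2 stood higher and DNMT3A and ZBTB38 lower in A375-BIR with DMSO too.

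Among Polycomb genes, JARID2, a cofactor of the second repressive complex, stood at 512 ± 56.5 CPM in A375 and 102 ± 48.3 CPM in A375-BIR and was lower (-2.45 ± 0.21, adjusted p = 7.3e-12). PCGF5, a ring finger subunit of the first complex, was higher (1.09 ± 0.25, adjusted p = 0.000689). RBBP7, a histone-binding subunit of several chromatin complexes, was higher as well (0.74 ± 0.23, adjusted p = 0.00794). KDM6B, an eraser of the lysine 27 mark, was lower (-1.48 ± 0.35, adjusted p = 0.000832). EZH2, which writes that mark, was not called (0.48 ± 0.22, adjusted p = 0.0804). With DMSO, KDM6B stood at 10.5 CPM in A375 (1 library) and 13.3 ± 4.96 CPM in A375-BIR. JARID2 stood lower and PCGF5 and RBBP7 higher in A375-BIR with DMSO too.

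Among lysine 9 and deacetylase genes, HDAC9 stood at 207 ± 13.8 CPM in A375 and 63.2 ± 25.1 CPM in A375-BIR and was lower (-1.89 ± 0.23, adjusted p = 2.21e-08), while HDAC7 stood at 71.9 ± 4.49 CPM in A375 and 228 ± 105 CPM in A375-BIR and was higher (1.61 ± 0.25, adjusted p = 4.29e-06). HDAC2, a deacetylase of corepressor complexes, was higher (0.93 ± 0.19, adjusted p = 0.000146). KDM5A, a demethylase of lysine 4, was lower (-0.84 ± 0.17, adjusted p = 0.000126). With DMSO, HDAC9 stood at 28.5 CPM in A375 (1 library), below its 42.8 ± 5.10 CPM in A375-BIR. KDM5A stood at 278 CPM in A375 and 252 ± 21.6 CPM in A375-BIR with DMSO. HDAC7 and HDAC2 stood higher in A375-BIR with DMSO too. DNMT1, DNMT3B and EZH2 were named after their values had been seen.

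**Figure D4:**
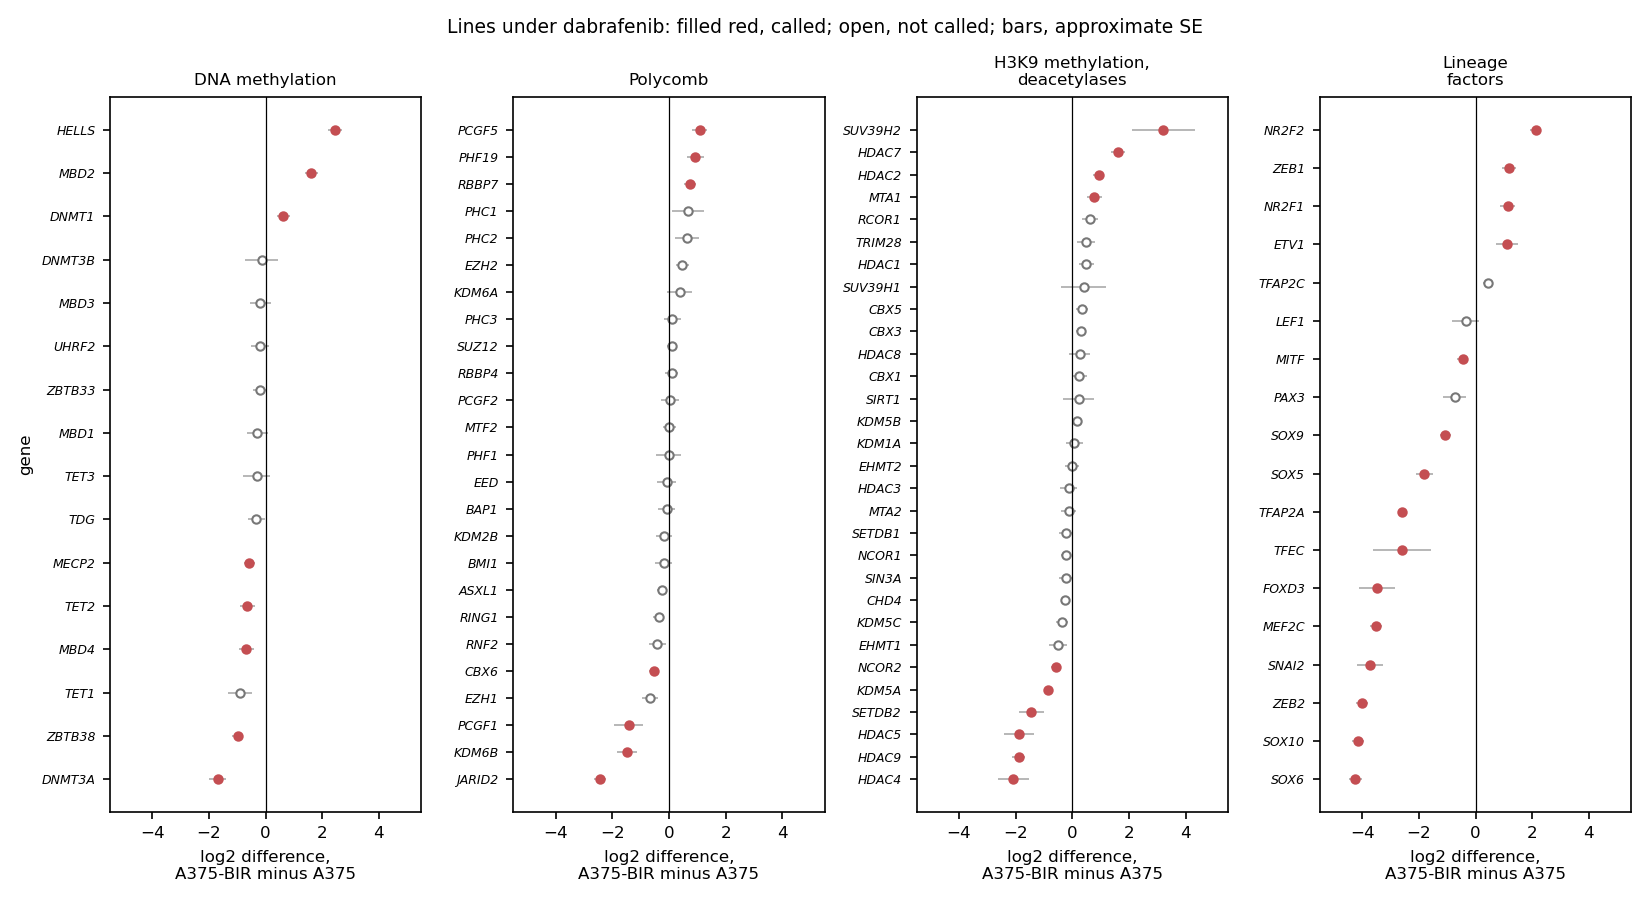
Log2 difference between A375-BIR and A375 with dabrafenib (x axis) for the tested genes of 4 lists, with approximate standard errors; filled red points were called at an adjusted p under 0.05. The 3 chromatin lists spread to both sides of 0, and 11 of the 18 lineage factors shown were lower.

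Lineage transcription factors were compared in the same contrast. Of 18 tested of 20 listed, 11 were lower, 4 higher and 3 not called in A375-BIR with dabrafenib, with a median log2 difference of -1.44, beside 20.2% of all genes called lower. The 2 not counted, TFAP2B and RXRG, are among the 104 genes. The 4 higher factors, named after their values had been seen, were NR2F2, ZEB1, NR2F1 and ETV1. NR2F2 stood at 147 ± 15.5 CPM in A375 and 700 ± 26.6 CPM in A375-BIR (2.12 ± 0.18, edgeR adjusted p = 5.47e-12). The log2 differences of ZEB1, NR2F1 and ETV1 were 1.18 ± 0.26, 1.13 ± 0.25 and 1.11 ± 0.39. With DMSO, ETV1 stood at 52.5 CPM in A375 (1 library) and 39.1 ± 2.56 CPM in A375-BIR, the reverse order. NR2F2, ZEB1 and NR2F1 stood higher in A375-BIR with DMSO too. SOX10, the neural crest factor that maintains pigment and glial cells, stood at 912 ± 72 CPM in A375 and 55.4 ± 17.5 CPM in A375-BIR (-4.16 ± 0.21, adjusted p = 1.71e-18). SOX6 stood at 403 ± 46.1 CPM in A375 and 22 ± 7.33 CPM in A375-BIR (-4.25 ± 0.23, adjusted p = 9.14e-18).

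ZEB2, a zinc finger factor of melanocytes, stood at 1607 ± 120.0 CPM in A375 and 108 ± 19.9 CPM in A375-BIR (-4.01 ± 0.20, adjusted p = 2.36e-18). MEF2C, a target of SOX10 in melanocytes, stood at 388 ± 44.8 CPM in A375 and 37.1 ± 9.06 CPM in A375-BIR (-3.51 ± 0.21, adjusted p = 2.78e-16). For SOX10, SOX6, ZEB2 and MEF2C every A375-BIR library with dabrafenib lay below every A375 library with dabrafenib. All 4 of these still had reads in each A375-BIR library. In the A375 DMSO library ZEB2 stood at 123 CPM, within the range of A375-BIR. Of the other lower factors, TFAP2A stood at 152 CPM there, beside 138 ± 6.64 CPM in A375-BIR with DMSO. FOXD3 had 0 CPM and TFEC 0.50 CPM there, beside 3.04 ± 1.86 and 1.36 ± 1.64 CPM. SOX10, SOX6, MEF2C, MITF, SOX5, SOX9 and SNAI2 stood above every A375-BIR DMSO library there. Factors in this comparison were named after their values had been seen. MITF, the master factor of the pigment program, differed less, with 234 ± 66.8 CPM in A375 and 187 ± 28.6 CPM in A375-BIR (-0.46 ± 0.19, adjusted p = 0.0421). The MITF call ended with DESeq2 (adjusted p = 0.112), with DESeq2 size factors in edgeR, without a filter on low counts, in a fit of the 2 groups alone, with the replicate block and without A375 dabrafenib replicate 1, A375-BIR dabrafenib replicate 1 or A375-BIR dabrafenib replicate 3. MITF was named after its values had been seen.

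Marker lists of cell types were summed in every library. Melanocyte markers (14 genes, TYR and PMEL among them) summed to 1391 CPM in A375 with DMSO, 2959 to 3778 CPM in A375 with dabrafenib, 242 to 261 CPM in A375-BIR with DMSO and 263 to 380 CPM in A375-BIR with dabrafenib. TYR was read in every A375 library and had 0 counts in A375-BIR. SLC45A2 had 0 counts in both lines, MLANA was read in 1 A375 library only and had 0 counts in A375-BIR, and GPR143 had 0 counts in A375 and 5 in A375-BIR. Epithelial markers summed to 85.0 CPM, 16.2 to 35.2 CPM, 285 to 340.5 CPM and 207 to 337 CPM in the same order. Most of the A375-BIR sum came from KRT18, at a mean of 209 CPM beside 10.8 CPM over the A375 libraries, and KRT8, at 77.1 beside 19.3 CPM. EPCAM, KRT5, KRT19 and GRHL2 had 0 counts in both lines, and KRT14 and ESRP1 had 0 in A375-BIR. Fibroblast, leukocyte and erythroid, and endothelial lists stayed at or below 46.0 CPM in every library, and COL3A1, PTPRC and VWF had no counts in the A375 libraries. Other members of the lists were read there. COL1A2 had a mean of 10.1 CPM in A375 and 1 count in A375-BIR, and FAP had 8.50 CPM and 2 counts. PDGFRB went the other way, with 1.01 CPM in A375 and 7.29 CPM in A375-BIR. CD68 was read in both lines, at 18.3 and 34.1 CPM. The part of any other cell type in the low levels of the 104 genes was not tested.

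The position of the genes on the chromosomes was not used to choose them. They lie on 21 chromosomes, with 10 on chromosome 1, 9 each on chromosomes 2 and 6, and none on chromosomes 9 and 13. Another gene of the set lies within 1 Mb of 9 genes (8.65%), while 13.0% of 8851 other expressed protein-coding genes have one of the 104 genes within that distance. The pairs were VWA1 with FNDC10 on chromosome 1 (155 kb apart), CYGB with ST6GALNAC2 (14.2 kb) and NPTX1 with AATK (639 kb) on chromosome 17, and DMTN with HR (31.9 kb) and each of them with EGR3 (605 and 554 kb) on chromosome 8. CYGB and ST6GALNAC2 have no protein-coding gene between them. The genes at 10 CPM or more in A375 that lie between the other pairs were compared between A375-BIR and A375 with dabrafenib. None of 3 was called between VWA1 and FNDC10, while the 1 between NPTX1 and AATK and the 1 between DMTN and HR were lower. Of 8 between DMTN and EGR3, 2 were lower and 1 was higher, and of the 7 of these that lie between HR and EGR3, 1 was lower and 1 was higher.

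The nearest expressed protein-coding gene on each side gave 203 neighbours, at a median distance of 84.0 kb, of which 202 were tested. In A375-BIR with dabrafenib 54 of them (26.7%) were lower and 31 (15.3%) higher, with a median log2 difference of -0.16, where 21.6% and 18.5% of the expressed genes outside the set were called (median -0.06). Within 100 kb, 33 of 107 neighbours (30.8%) were lower and 12 (11.2%) higher, with a median of -0.31. The remaining neighbours were not called.

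HAPLN3, a hyaluronan link protein gene 1.93 kb from ACAN (chromosome 15, 88877288 to 88895626), stood at 24.1 ± 4.13 CPM in A375 and 0.937 ± 0.895 CPM in A375-BIR with dabrafenib, where A375-BIR had 2 counts. The ratio was 24.1 (95% counting interval 6.11 to 209, edgeR adjusted p = 1.78e-06), and with 7 counts over all A375-BIR libraries HAPLN3 lay just outside the count limit. ISG20, the expressed neighbour on the other side of ACAN, named after its values had been seen, was not called (-0.85 ± 0.56, adjusted p = 0.23). BIN3, a membrane-curvature protein gene 18.5 kb from EGR3, stood at 79.6 ± 12.3 CPM in A375 and 8.43 ± 3.73 CPM in A375-BIR (-3.48 ± 0.34, adjusted p = 1.01e-10). TUBB2A, 66.7 kb from TUBB2B, stood at 170.0 ± 39.2 CPM in A375 and 19.6 ± 4.70 CPM in A375-BIR (-3.27 ± 0.26, adjusted p = 7.05e-13).

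EXTL1, a heparan sulfate enzyme gene 14.8 kb from TRIM63, stood at 26.6 ± 10.2 CPM in A375 and 4.27 ± 0.784 CPM in A375-BIR (-2.87 ± 0.53, adjusted p = 2.85e-05). RPTOR, the raptor subunit of the mTOR complex, 67.0 kb from NPTX1, stood at 39.1 ± 18.2 CPM in A375 and 5.98 ± 6.43 CPM in A375-BIR (-2.86 ± 0.53, adjusted p = 4.09e-05). CEP131, a centrosome gene 23.5 kb from AATK, stood at 8.65 ± 3.15 CPM in A375 and 1.45 ± 1.31 CPM in A375-BIR, where A375-BIR had 2 counts, a ratio of 9.16 (95% counting interval 2.00 to 85.0, edgeR adjusted p = 0.0101). The call of CEP131 ended without A375-BIR dabrafenib replicate 1.

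**Figure D5:**
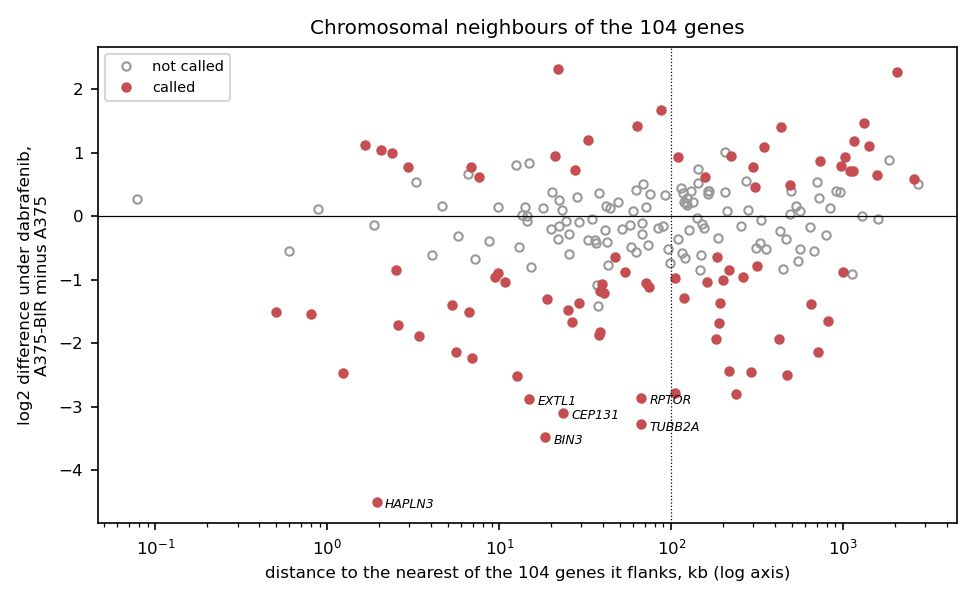
Log2 difference between A375-BIR and A375 with dabrafenib (y axis) of the 202 tested neighbours against their distance in kb from the nearest of the 104 genes they flank (log x axis); filled points were called, and the dotted line marks 100 kb. Lower calls reach further from 0 than higher ones, and HAPLN3 lies lowest.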

How the data were processed

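The deposited values are raw read counts per gene, 1 file per library. Per the labels, the authors made QuantSeq 3′ libraries from 250 ng of RNA and sequenced single reads of 100 bases. The submitters' processing notes name hg38, while for the aligner, counter, annotation and strandedness the entry is: not given in the sources used here. The 5 closing lines of each file, which name no gene, were left out. The 2 files with mouse identifiers were left out of every result. Gene types and positions were taken from GENCODE 29, in which 33132 of 33694 listed identifiers were found.

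Levels are CPM on raw gene totals. Tests used edgeR 4.0.16 in R 4.3.3 (TMM, filterByExpr with minimum count 10, glmQLFit with robust fitting, 10 libraries, 1 coefficient per group, 6 residual degrees of freedom), with Benjamini-Hochberg adjustment over 10236 genes and a threshold of 0.05. Each ± beside a log2 value is an approximate standard error, taken as the log2 value over the root of the F statistic. A p-value measures the spread between libraries labelled biological replicates. The common biological coefficient of variation was 0.136. On simulated counts the A375 contrast recovered 100% of genes raised 4-fold, 84% of genes lowered to 0.25, 40% of genes raised 2-fold and 30% of genes lowered to 0.5. Each share rests on 50 changed genes and was not split by level, so the recovery of genes near the level limit is not known. The simulation cannot tell run from treatment in A375. A fold against 0 counts was set against 3 counts over the group, and ratios carry exact 95% counting intervals.

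The genes, their lists and the alternatives (DESeq2 1.42.0, scaling, filters, groups fitted, replicate block, single libraries left out) were chosen with earlier results of these data known. Named genes are the 30 highest in A375, the 10 largest called changes in each direction, those at the limits, pairs within 1 Mb, markers and listed family members, up to 4 called genes of smallest p per list, and the 6 lowest neighbours within 100 kb. Role examples beyond these were chosen after their values had been seen. 1 listed gene is not reported here and was left out of its list.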

Additional observations from a re-analysis of the deposited data

How the results depend on the processing

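The number of genes passing both limits was 104, and it moved to 53 at 20 CPM or more, 188 at 5 CPM or more and 178 with up to 12 counts in A375-BIR. It was 72 with up to 3 counts, 112 with TMM-scaled totals, 102 from the A375 dabrafenib libraries alone (92 shared with the 104) and 114 from the A375 DMSO library alone (77 shared), and leaving out single libraries gave 102 to 139. With DESeq2 the response of A375 called 2485 genes in place of 3948, and 10 higher and 14 lower of the 104 genes in place of 18 and 25. With a mean count of at least 50, which tests far fewer genes, the numbers were 1669, 0 and 2. Leaving out single dabrafenib libraries gave 3091 to 3597 genes in the response, 11 to 18 higher and 21 to 24 lower. The 11 came without A375 dabrafenib replicate 1. Under every fit except that with a mean count of 50, 6 of the 18 higher calls (ASPA, CRYAB, FGFBP2, GASK1B, NDN and RASGRP3) and 13 of the 25 lower calls were kept. Between the lines with dabrafenib, a mean count of at least 50 gave 1764 called genes in place of 4374, 6 higher and 9 lower chromatin genes in place of 10 and 15, and 20 lower neighbours in place of 54. No named gene reversed its direction while called.

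The replicate numbers gave no sign of pairing: same-numbered libraries correlated at -0.12 to 0.11 after group means were removed. With the replicate number as a block, 3296 genes were called in the response of A375, 15 higher and 22 lower of the 104 genes, 4292 genes between the lines, 10 higher and 15 lower chromatin genes and 54 lower neighbours. Of 85 named results, 9 lost and 2 gained a call under the block.

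Depth limits the A375-BIR side to 0.660 CPM for 0 counts, and A375 with dabrafenib replicate 3 has only 198690 gene counts. The A375 DMSO group has 1 library of another run stamp. Other choices for the promoter comparison were not run, because only 70 of the 104 genes had a promoter in the table.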
